A study of Mus musculus with 2 samples.

Results

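The cadherins and protocadherins were taken as every gene whose symbol is Cdh followed by a number or begins with Pcdh, which gave 92 of the 32285 genes in the deposited list. They comprise 5 type I cadherins, 13 type II cadherins, 5 other cadherins (Cdh13, Cdh16, Cdh17, Cdh23 and Cdh26), 12 non-clustered protocadherins, and 14 alpha, 22 beta and 21 gamma protocadherins of the 3 gene clusters. Their nuclear RNA was counted in single nuclei of the hippocampus from mice aged 3 months. There was 1 library from male and 1 from female mice, and all mice carried the same genotype, Stra8L/- with Nestin-Cre. Stra8 is known as a switch for meiotic entry in germ cells, and Nestin-Cre is active in neural progenitors, so that neurons and macroglia descend from recombined cells while microglia and blood vessel cells mostly do not. No other genotype was analysed here, and the labels do not state how many animals entered each library. Whether the members depend on the deletion was therefore not addressed, and the sex of the mice cannot be told apart from the animals, their dissection or the library.

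Cadherins are calcium-dependent adhesion proteins that sit in the membrane and bind mainly to like molecules on a neighbouring cell. Type I and type II cadherins bind catenins inside the cell and through them the actin cytoskeleton, whereas protocadherins lack the catenin-binding tail. Type II members are expressed in combinations that mark brain regions and their synapses, and cadherin-9, for example, is known at the mossy fibre synapse that dentate granule cells make on CA3 pyramidal cells. Clustered protocadherins are transcribed from alternative promoters, a few per neuron, and serve as identity tags in self-avoidance.

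The type II genes Cdh6, Cdh9, Cdh10, Cdh12 and Cdh18 are the 5 members on chromosome 15, and the first 3 of them gave unlike patterns over the hippocampal fields. The sequences before their transcription starts are shown because Cdh6 and Cdh9, whose highest fields differed, carried a matching run there. RefSeq promoter windows (build GRCm38.p6, 250 bases before to 50 after the start) were found for 22 of the 92 members. Bases in an annotated exon were left out of what is printed, and capitals mark the run of 15 bases shared by Cdh6 and Cdh9.
Cdh6: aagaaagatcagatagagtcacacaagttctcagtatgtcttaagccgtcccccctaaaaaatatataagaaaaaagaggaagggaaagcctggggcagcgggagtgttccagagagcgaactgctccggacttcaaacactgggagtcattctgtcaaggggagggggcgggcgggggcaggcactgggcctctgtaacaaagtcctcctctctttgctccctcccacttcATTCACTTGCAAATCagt
Cdh9: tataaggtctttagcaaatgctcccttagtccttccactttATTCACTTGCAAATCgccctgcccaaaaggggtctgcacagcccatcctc
Cdh10: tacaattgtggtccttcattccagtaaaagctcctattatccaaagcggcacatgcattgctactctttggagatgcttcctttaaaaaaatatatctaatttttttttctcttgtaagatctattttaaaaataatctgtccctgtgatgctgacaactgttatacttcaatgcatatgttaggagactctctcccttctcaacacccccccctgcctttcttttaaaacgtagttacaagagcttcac
The Cdh6 stretch is chr15:13173676-13173925 on the minus strand and the Cdh9 stretch is chr15:16728665-16728755 on the plus strand. Both end at the first base of the GENCODE vM21 gene model, and the run lies 3 bases before that start in Cdh6 and 35 bases before it in Cdh9. The RefSeq start of Cdh9 lies further on, 194 bases after the run. The Cdh10 stretch is chr15:18820079-18820328 on the plus strand, which precedes the RefSeq start but lies in an intron of the longer GENCODE gene model, and it does not hold the run. Among 296 pairs of member windows, searched on both strands, this run and a TC-repeat in Cdh26 and Pcdh7 were the longest matches at 15 bases. The Cdh6 and Cdh9 run occurred in 2 of 32851 promoter windows, so in no other gene's window, while the repeat occurred in 7. The stretch was chosen after the sequences were searched, and a match is a description of letters and not of a binding site.

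The male library held 103262825 unique molecular identifiers (UMIs, tags that count each captured RNA molecule once) over 16174 barcodes, and the female library 108286856 over 20150. Nuclei were clustered without the 92 members among the genes used, and clusters were named from markers, leaving 12901 male and 11874 female nuclei in named classes. A further 6.66% of the kept male and 30.6% of the kept female nuclei stayed unnamed. The libraries shared 101 barcodes, 44 of them among named nuclei. The neuron classes compared, all excitatory, were dentate granule (4029 male and 1697 female nuclei), CA3 pyramidal (759 and 563), CA1 pyramidal (1722 and 1587), subiculum (260 and 245) and a retrohippocampal deep-layer class (815 and 270), all named as resembling those types. Of 8 subiculum markers 4 lay over 2-fold in each library and Ly6g6e was at 0, so that name rests on few markers. The CA1 name also rests on 4 of 8 in each library, and the retrohippocampal name on 4 (male) and 5 (female). The retrohippocampal class was made of different clusters in the libraries: 476 male and 49 female nuclei came from a cluster led by Gm49906, and 339 and 221 from one led by Vwc2l. Levels are counts per 1000000 UMIs of a class in a library (CPM), and no level is compared between genes because longer genes give more nuclear UMIs.

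No member was at 0 UMIs, 10 had under 50 UMIs over both libraries, and 61 were measured in no class, which here means at least 50 UMIs and 20 CPM. Of the 57 clustered protocadherins, 3 were measured in a class and none between neuron classes. Between neuron classes 24 members were measured, among them 11 type II cadherins and 10 non-clustered protocadherins. A member passed through the class where it was high, so the counts below are read only beside the same rule over all genes. Past the fold means over 2-fold, on CPM plus 5, the same way in both libraries. Of these 24 members 19 were past the fold in at least 1 of 10 pairs of neuron classes, against 27.0% of all genes measured in any pair, and Cdh2, Cdh8, Pcdh1, Pcdh9 and Pcdh10 were past it in none.

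**Figure D1:**
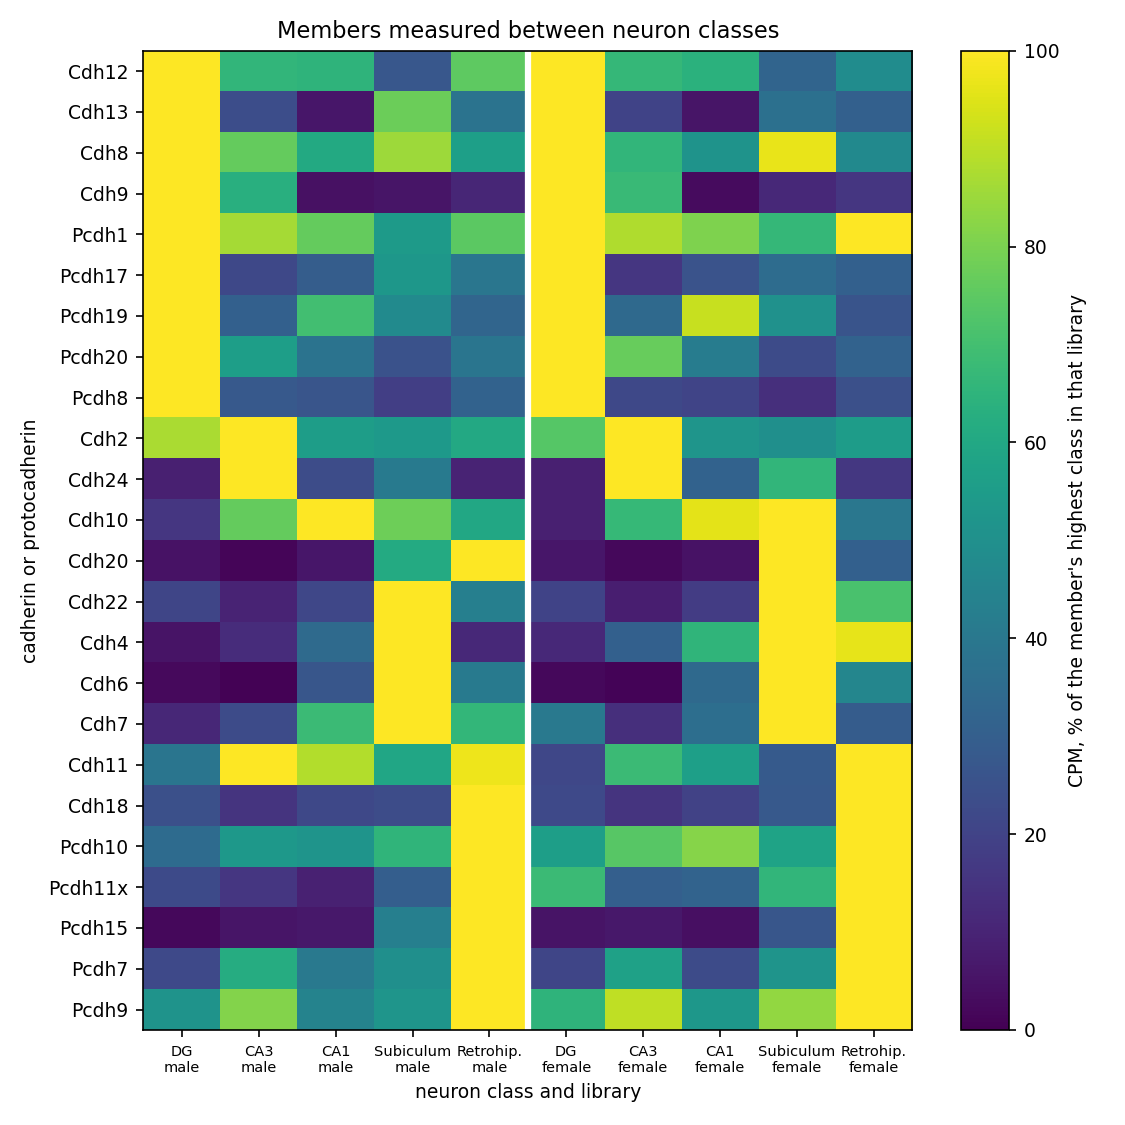
Level of the 24 measured members in 5 neuron classes, as a percent of each member's highest class within the male library (left 5 columns) and the female library (right 5 columns). Cdh9 was brightest in dentate granule nuclei and at 63.3% (male) and 67.8% (female) of that level in CA3, but at 4.39% and 3.00% in CA1, and Cdh6 was brightest in the subiculum in both libraries.

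Granule cells of the dentate gyrus and their CA3 targets shared Cdh9 and differed in Cdh10, Cdh13 and Pcdh17. Of 20 measured members 8 were past the fold between these classes, against 12.1% of all measured genes. Toward granule cells it was 4 members, against 7.36% of all genes, and toward CA3 also 4, against 4.77%. Cdh9, the homophilic cadherin of the mossy fibre synapse, was at 743 CPM (male) and 847 CPM (female) in granule nuclei and at 470 and 574 in CA3. Both fields were thus high in Cdh9 in both libraries, with less than 2-fold between them. Cdh13, a cadherin anchored by a lipid and lacking the intracellular tail, was at 314 and 321 CPM in granule nuclei and at 74.4 and 64.9 in CA3. Pcdh17, a delta protocadherin known at presynaptic sites and as a recruiter of the WAVE complex, was at 328 and 438 CPM in granule nuclei and at 71.5 and 69.4 in CA3. The log2 ratio of Pcdh17 was 2.12 (male) and 2.57 (female). For the ratio without the added 5 CPM, the 95% counting intervals were 2.08 to 2.32 and 2.52 to 2.80. Granule nuclei were the higher field for both genes, and the CA3 values of the libraries lay close together.

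Pcdh8 and Pcdh19 were the other members past the fold toward granule cells. Pcdh8, the activity-regulated protocadherin arcadlin that promotes uptake of N-cadherin, was at 47.9 and 31.2 CPM in granule nuclei against 13.3 and 6.82 in CA3. Among the 5 excitatory classes the next highest for Pcdh8 was the retrohippocampal one at 15 and 7.60 CPM, and granule nuclei were over 2-fold above each of the other 4 in both libraries. Adarb2 interneurons were at 15.5 and 13.6 CPM, and Cajal-Retzius nuclei lay above granule nuclei at 69.9 and 65.5 CPM, but from 5 and 2 UMIs. Oligodendrocytes (53.7 and 23.9 CPM), microglia (53.7 and 28.2) and astrocytes (51.9 and 19.8) lay above granule nuclei in the male library and below them in the female. Pcdh19, the X-linked delta protocadherin of an inherited epilepsy, was at 166 and 88.0 CPM in granule nuclei against 50.7 and 30 in CA3.

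On the CA3 side the members past the fold were Cdh10, Cdh11, Cdh24 and Pcdh7. Cdh10, a type II cadherin able to bind cadherin-9 and cadherin-6, was at 312 and 306 CPM in CA3 but at 65.1 and 40.6 in granule nuclei. Cdh24, a type II cadherin, was at 34.4 and 32.1 CPM in CA3 and at 3.04 and 2.79 in granule nuclei, from 303 and 221 against 71 and 30 UMIs. Cdh11, a type II cadherin first known from bone, was at 508 and 565 CPM in CA3 and at 198 and 175 in granule nuclei. Pcdh7, a delta protocadherin, was at 405 and 415 CPM in CA3 and at 145 and 150 in granule nuclei. For all 4 of these members both CA3 values lay above both granule values.

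**Figure D2:**
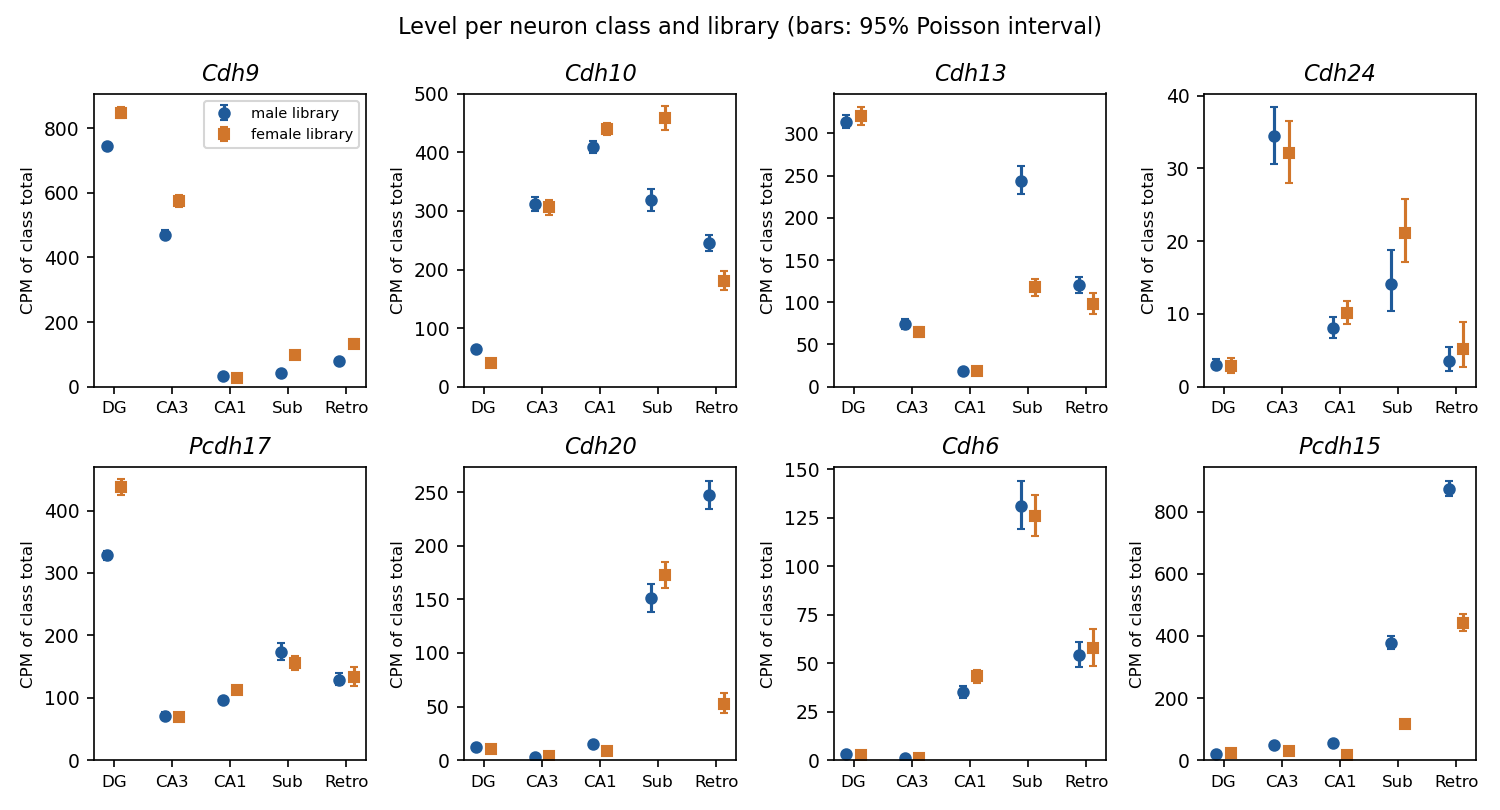
CPM of 8 members in the 5 neuron classes (DG, dentate granule; Sub, subiculum; Retro, retrohippocampal deep-layer), with the male library as circles, the female library as squares and bars giving 95% Poisson intervals of the UMI count only. Cdh9 was high in DG and CA3, Cdh10 was lowest in DG, and Cdh20 and Pcdh15 were at 118 CPM or more in the subiculum of both libraries but at 54.9 CPM or less in DG, CA3 and CA1.

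CA3 and CA1 pyramidal nuclei were set apart most by Cdh9 and Cdh6. Of 21 measured members 6 were past the fold, against 7.48% of all measured genes. Toward CA3 it was 3 members, against 3.62%, and toward CA1 also 3, against 3.86%. Cdh9 was at 32.7 and 25.4 CPM in CA1, so CA3 was higher by log2 ratios of 3.66 (male) and 4.25 (female). Cdh6, a type II cadherin that can pair with cadherin-9, went the other way. It gave 8 and 9 UMIs in CA3, or 0.908 and 1.31 CPM, against 559 and 684 UMIs, or 35.1 and 43.2 CPM, in CA1. Both genes thus switched between these neighbouring fields in both libraries, in opposite directions.

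The other calls between CA3 and CA1 were smaller. Cdh24 was at 8.04 and 10.1 CPM in CA1 and so was higher in CA3. Cdh7, a type II cadherin, was at 9.19 and 7.40 CPM in CA3 and at 27.3 and 20 in CA1, a log2 ratio of -1.19 and -1.01. The female ratio fell inside 2-fold under 4 other settings, at -0.91 to -0.99. Pcdh19 was at 116 and 80.5 CPM in CA1, above its CA3 level. Cdh13 was at 18.6 and 18.1 CPM in CA1 and was called higher in CA3, but that call rested on a subset of nuclei. With a finer clustering that split CA2 from CA3, the mean log2 ratio of Cdh13 between CA3 and CA1 was 0.09.

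CA2 pyramidal nuclei, 231 male and 131 female, separated from 536 and 434 CA3 nuclei at that finer resolution. Of 19 measured members 6 were past the fold, against 5.07% of all measured genes. Cdh13 was at 218 and 221 CPM in CA2 and at 16.1 and 19.1 in CA3. Pcdh15, whose protein forms the tip link of inner ear hair cells with cadherin-23, was at 122 and 97.3 CPM in CA2 and at 19.0 and 8.26 in CA3. Pcdh17 was at 154 and 159 CPM in CA2 against 37.9 and 43.0. Each of these 3 members was high in the CA2 nuclei of both libraries and low in CA3.

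Pcdh11x, an X-linked delta protocadherin, and Cdh7 were also past the fold toward CA2. Pcdh11x was at 58.6 and 47.4 CPM there against 5.11 and 7.51, and Cdh7 at 26.0 and 17.3 against 2.40 and 5.07. Cdh9 alone went the other way, at 170 and 172 CPM in CA2 and at 593 and 693 in the remaining CA3 nuclei. CA2 nuclei therefore held a Cdh9 level between those of CA3 and CA1 in both libraries.

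The subiculum was separated from CA1 by Cdh20, Cdh22, Cdh13, Pcdh15 and Cdh6, all higher in the subiculum. These were 5 of 23 measured members, against 4.98% of all measured genes either way and 3.46% in that direction. Toward CA1 it was 0 members, against 1.52%. Cdh20, a type II cadherin, was at 151 and 173 CPM in the subiculum against 15.1 and 8.34 in CA1. Cdh22, another type II cadherin, was at 50.4 and 41.5 CPM against 10.7 and 7.45. Cdh6 was at 131 and 126 CPM in the subiculum, its highest neuron class, and over 2-fold above the retrohippocampal class at 54.2 and 57.6. These 3 members gave close values in the libraries.

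Cdh13 and Pcdh15 had subicular levels that differed between the libraries. Cdh13 was at 244 CPM in the male and 118 in the female subiculum, and Pcdh15 at 377 and 118, while their CA1 levels were 18.6 and 18.1 for Cdh13 and 54.9 and 17.7 for Pcdh15. All subicular values lay above all CA1 values. Either library on its own put 8 members past the fold between CA1 and the subiculum.

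Among the excitatory classes compared, the retrohippocampal nuclei were the highest in Pcdh15 and Cdh18. Pcdh15 was at 874 and 443 CPM there, over 2-fold above the subiculum. Cdh18, a type II cadherin, was at 402 and 502 CPM, and the other 4 classes reached at most 98.9 CPM (male) and 141 CPM (female). Between the subiculum and this class 4 of 23 measured members were past the fold, against 4.16% of all measured genes. Pcdh15 and Cdh18 were the 2 that were higher in the retrohippocampal class (2.68% of all genes), and Cdh6 and Cdh24 the 2 that were higher in the subiculum (1.48%). Neither Pcdh15 nor Cdh18 was particular to the retrohippocampal class among all named classes. Lhx6 interneurons were at 699 (male) and 679 CPM (female) for Pcdh15 and at 422 and 391 for Cdh18. Oligodendrocyte precursors were at 2761 and 2845 CPM for Pcdh15, and female thalamic or habenular nuclei at 527 CPM for Cdh18.

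For the other pairs the share past the fold was as follows. Between granule nuclei and CA1 it was 9 of 21 members, against 11.7% of all measured genes. Between granule nuclei and the subiculum it was 13 of 24, against 15.4%, and between granule nuclei and the retrohippocampal class 13 of 23, against 10.8%. The 4 pairs with dentate granule cells therefore gave the 4 highest shares of members. They also gave the 4 highest shares of all measured genes, so this order is not read as particular to the members. Between CA3 and the subiculum it was 9 of 23, against 9.08%, between CA3 and the retrohippocampal class 8 of 23, against 9.29%, and between CA1 and the retrohippocampal class 8 of 22, against 8.34%. The share of measured members was above that of all measured genes in each of the 10 pairs. The pairs share classes and libraries and are not independent, and granule nuclei had a lower median depth (5068 and 5724 UMIs) than CA3 nuclei (10695 and 11115). The median gene was 0.16 higher in granule than in CA3 nuclei on the log2 scale.

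**Figure D3:**
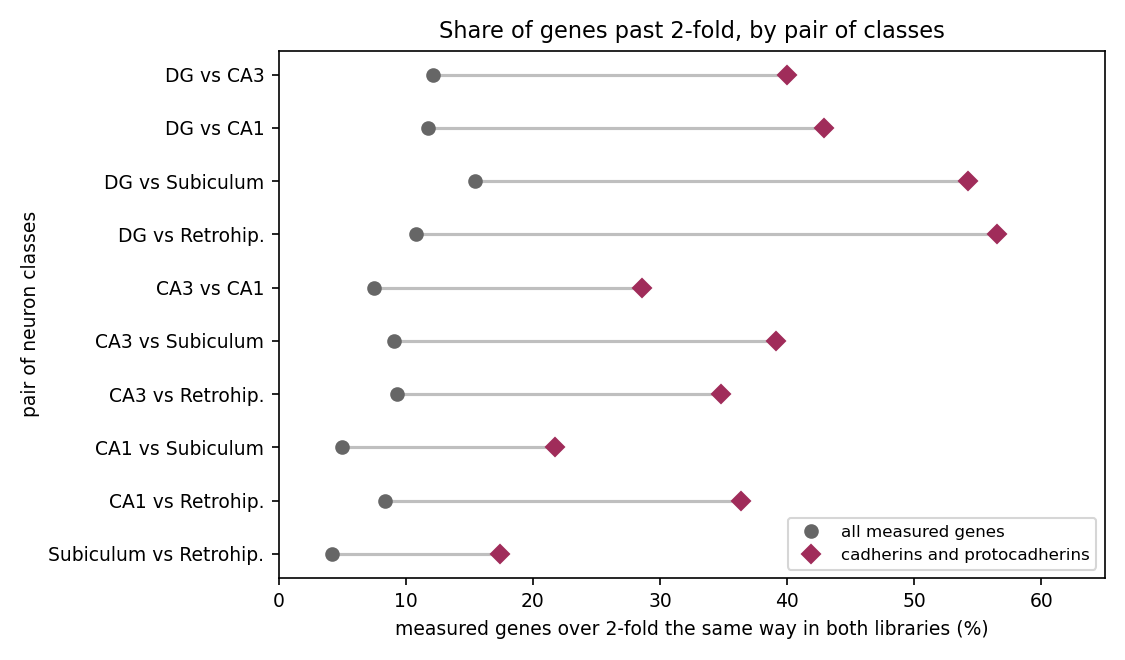
Percent of measured members (diamonds) and of all measured genes (circles) that were over 2-fold the same way in both libraries, for each of 10 pairs of neuron classes. Members ranged from 17.4% (subiculum against retrohippocampal) to 56.5% (granule against retrohippocampal), and all genes from 4.16% to 15.4%.

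A combination of 3 members was enough to tell the 4 hippocampal fields apart. A member was taken as on in a field at 50% or more of its highest field and as off at 25% or less, in both libraries, and 12 of 24 members were on in at least 1 of the 4 fields and off in another, against 10.9% of all genes at 20 CPM or more in their highest field. How many sets of other genes separate the fields was not computed. No pair of members separated all 4 fields, and 12 sets of 3 did. Every one of these 12 sets held Cdh9, the only member that was on in CA3 and off in CA1. The second place was taken by Cdh10, Cdh13, Cdh24 or Pcdh17, which part granule cells from CA3, and the third by Cdh20, Cdh22 or Pcdh15, which part the subiculum from CA1. With Cdh9, Cdh10 and Cdh20, granule cells were on in Cdh9 alone, CA3 in Cdh9 and Cdh10, CA1 in Cdh10 alone, and the subiculum in Cdh10 and Cdh20.

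With the retrohippocampal class as the fifth, no set separated all classes, since no member was on in the subiculum and off there or the reverse. Cdh18 and Pcdh15 were each on in the retrohippocampal class and off in granule, CA3 and CA1 nuclei, but between the limits in the subiculum. The code is read from class sums, and neither the on limit nor the off limit was varied.

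The members alone also placed single nuclei. Each nucleus was reduced to 2000 UMIs and given to the class whose member profile in the other library made its counts most likely. The mean share placed in the class named from markers was 64.2% in each library, where an even share over 5 classes is 20%. How well sets of other genes would place the nuclei was not computed, so the share is not read as particular to the members. For granule nuclei it was 76.3% (male; exact 95% interval 75.0 to 77.6) and 77.1% (female; 75.0 to 79.1). For CA1 nuclei it was 76.3% and 72.6%. CA3 nuclei differed between the libraries, with 55.9% of male and 75.9% of female nuclei placed in CA3.

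The subiculum was placed least well, at 46.5% and 42.0%. The male subicular nuclei went to CA1 in 29.2% of cases and to the retrohippocampal class in 16.5%, and the female ones in 18.4% and 18.0%. Retrohippocampal nuclei were placed at 65.9% and 53.5%, and the female ones went to CA3 in 25.8% of cases. Without Pcdh9 the mean share was 63.1%, and with Cdh6, Cdh9, Cdh10, Cdh13 and Pcdh15 alone, a set chosen after seeing these data, it was 50.8%. At 1000 UMIs per nucleus it was 53.9%.

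**Figure D4:**
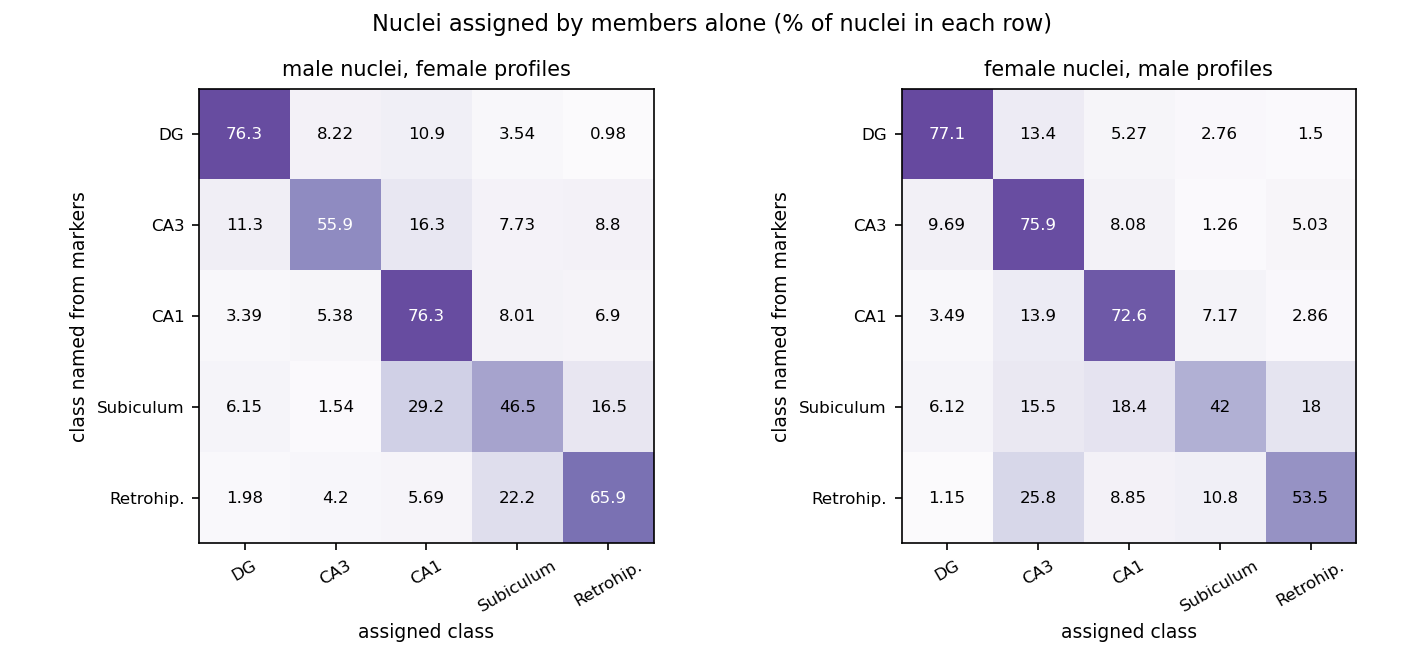
Percent of nuclei of each marker-named class (rows) assigned to each class (columns) from their cadherin and protocadherin counts alone, for male nuclei with female profiles (left) and female nuclei with male profiles (right), 2000 UMIs per nucleus. The diagonal runs from 42.0% (female subiculum) to 77.1% (female granule cells).

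Within CA1 and the granule layer, finer clusters differed in Pcdh7, and within the granule layer also in Cdh18. CA1 nuclei split into a cluster led by Gm10754 (1027 male and 599 female nuclei) and one led by 4921539H07Rik (673 and 972), and 1 of 20 measured members was past the fold, against 1.17% of all measured genes. That member was Pcdh7, at 377 and 323 CPM in the first and 71.2 and 51.3 in the second. The granule cluster led by Gm6999 was likewise higher in Pcdh7 than the one led by Glis3, at 241 and 278 CPM against 65.8 and 60.9. Cdh18 followed it, at 162 and 176 CPM against 59.5 and 66.9, and these were 2 of 19 measured members, against 1.18% of all measured genes. Pcdh7 thus varied inside both CA1 and the granule layer, in both libraries.

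A granule cluster led by C1ql2 differed from the one led by Glis3 in Pcdh1 alone, 1 of 19 measured members, against 3.18% of all measured genes. With a single member, this count is not read as above the share of all genes. Pcdh1, a delta protocadherin, was at 123 and 88.9 CPM there against 55.3 and 36.7, and the female value of the first cluster came from 69 nuclei and 39 UMIs.

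An unnamed cluster led by Gm32647, with 87 male and 251 female nuclei at the finer resolution, was past the fold from CA3 in 8 of 22 measured members, against 3.40% of all measured genes. Gm32647 and Csf2rb2, which are markers listed here for hilar mossy cells, led it, but at the first resolution only 2 of 8 such markers lay over 2-fold, and 26.9% of its barcodes were called doublets. Cdh9 was at 238 and 299 CPM in it, below CA3. Cdh13 was higher at 193 and 181 CPM, and Pcdh15 at 117 and 253. The remaining 5, all higher than in CA3, were Cdh20, Cdh7, Pcdh17, Cdh6 and Pcdh11x. The part of doublets in these values was not tested.

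The 2 retrohippocampal clusters were unlike in 6 of 23 measured members, against 4.12% of all measured genes. Cdh11 was at 834 and 964 CPM in the cluster led by Vwc2l and at 224 and 312 in the one led by Gm49906. Cdh12, a type II cadherin, was at 184 and 268 CPM in the first and 739 and 554 in the second. Cdh10 was at 120 and 121 CPM in the first and 345 and 406 in the second. Cdh20, Cdh7 and Pcdh11x were past the fold in the same direction as Cdh10 and Cdh12. A level for the whole class therefore depends on how many of its nuclei came from each cluster.

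Among inhibitory neurons, the class named Lhx6 interneuron (453 male and 521 female nuclei) was compared with Adarb2 nuclei (193 and 188). It was past the fold above them in 4 of 22 measured members, against 3.26% of all measured genes. Cdh13 was at 577 and 469 CPM in Lhx6 nuclei and at 83.7 and 118 in Adarb2 nuclei. Cdh9 was at 315 and 344 CPM against 70.4 and 142. Cdh18 was at 422 and 391 CPM against 114 and 135, and Cdh12 at 331 and 412 against 105 and 181. The Lhx6 class therefore held both Cdh9 and Cdh13, as granule cells did.

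An unnamed cluster led by Reln held 123 male and 138 female nuclei at the finer resolution, where the Lhx6 cluster held 330 and 381. These counts together about match those of the Lhx6 class above, so the levels of that class may mix both clusters. The Reln-led cluster differed from the finer Lhx6 cluster in 6 of 23 measured members, against 4.78% of all measured genes. Of 8 markers of Lamp5 interneurons 6 lay over 2-fold in the Reln-led cluster, but its leading genes held as many markers of another class (2 each), so it was not named. Cdh20 was at 418 and 351 CPM in this cluster and at 65.7 and 92.3 in the finer Lhx6 cluster. Cdh13 was at 97.7 and 49.3 CPM against 726 and 574, Cdh18 at 47.4 and 82.2 against 538 and 469, and Pcdh7 at 216 and 193 against 813 and 780. Cdh4 and Cdh8 were also lower in the Reln-led cluster.

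Outside the excitatory classes 5 of the 31 members measured in a class were at least 2-fold above every other named class in both libraries, against 9.26% of all genes so measured. Pcdh15 was at 2761 and 2845 CPM in oligodendrocyte precursors, and the next class was the retrohippocampal one at 874 CPM (male) and Lhx6 interneurons at 679 CPM (female). Cdh23, the partner of protocadherin-15 in the hair cell tip link, was at 378 and 507 CPM in microglia or macrophages and at most 34.5 and 10.2 elsewhere. The 34.5 was in male ependymal nuclei, of which there were 5. The 2 tip-link partners were thus highest in different glial classes.

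Cdh1, the epithelial E-cadherin, was at 133 and 105 CPM in fibroblast or meningeal nuclei, from 22 and 42 UMIs. Cdh5, the endothelial VE-cadherin, was at 69.2 and 70.8 CPM in endothelial nuclei, from 9 and 42 UMIs, so its male value rests on few counts. Cdh4, the retinal R-cadherin, was at 755 and 1113 CPM in Cajal-Retzius nuclei, from 54 and 34 UMIs in 32 and 17 nuclei. All 3 of these classes were small, and the intervals of their UMI sums cover counting error only.

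Cdh19 and Cdh20 were high in macroglia and low in pyramidal cells. Cdh20 was at 737 and 969 CPM in oligodendrocytes, 534 and 636 in their precursors and 543 and 667 in astrocytes, against 3.29 and 3.48 in CA3. Cdh19, a type II cadherin known from glia and their precursors, was at 250 and 533 CPM in oligodendrocytes, 91.8 and 146 in precursors and 265 and 328 in astrocytes, against 1.26 and 2.34 in CA1. Pcdh11x was at 530 and 599 CPM in precursors. The classical N-cadherin gene Cdh2 was present in every class, from 62.8 CPM in female microglia to 870 in female oligodendrocytes.

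The clustered protocadherins are described mainly as sums. In the annotation all 14 alpha genes share 1 last exon and so do all 21 gamma genes, so the authors' counting from the 3' end could not assign reads from those exons to a single isoform. All 22 beta genes have a single-exon transcript, so this limit does not apply to them, but only Pcdhb14 and Pcdhb16 were measured in a class. Pcdhb14 was at 20.8 and 30.9 CPM in astrocytes, from 69 and 161 UMIs, and Pcdhb16 at 12.2 and 21.4 CPM in Adarb2 interneurons, from 22 and 36. The gamma gene Pcdhga12 was at 22.0 and 14.0 CPM in astrocytes. The alpha sum was at 14.7 and 16.3 CPM in granule nuclei, 15.2 and 16.5 in CA3, 16.1 and 16.0 in CA1 and 15 and 11.6 in the subiculum, and at 2.42 and 1.92 in astrocytes. The granule and CA1 values lay within the counting intervals of CA3, which ran from 12.7 to 18.0 and from 13.6 to 19.9. The female subiculum (8.72 to 15.2) and CA1 (14.1 to 18.1) had overlapping intervals, but each value lay outside the other's interval. Astrocytes lay below all 4 fields.

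Beta and gamma sums did not share that low astrocyte level. The beta sum was at 141 and 165 CPM in astrocytes, 91.3 and 108 in granule nuclei, 78.0 and 122 in CA1 and 51.9 and 66.9 in CA3. The gamma sum was at 82.7 and 71.6 CPM in astrocytes, 44.2 and 48.1 in granule nuclei, 36.0 and 39.1 in CA1 and 29.4 and 21.5 in CA3. CA3 was the lowest of these 4 classes for both sums in both libraries. The subiculum was at 61.3 and 92.5 CPM for the beta sum and at 28.0 and 42.0 for the gamma sum.

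Between the male and the female library, 20 of 200 member and class combinations in 10 classes were past 2-fold, 16 with the male level higher and 4 with the female. With ratios centred on the median gene of each class it was 10 and 5. Over all measured genes the share past 2-fold either way ran from 0.361% in CA3 to 3.13% in microglia. Its split by direction is not given here, so the male lean is not read as particular to the members. Some members, such as Pcdh1 and Pcdh19, are counted in several classes. Pcdh15 in CA1 and the subiculum, Cdh7 in granule nuclei, Cdh19 in oligodendrocytes and Cdh20 in the retrohippocampal class stayed measured and past 2-fold under all 8 planned settings. The other 15 combinations did not, and some dropped out by falling below the limits for measured genes. Adding 1 CPM instead of 5, or dropping those limits, could not lose a call by construction. Only the remaining planned settings could. Cdh4 in the subiculum was lost only with nuclei thinned to 1000 UMIs, where its log2 ratio was still 1.10. No member was past it in CA3 or in Lhx6 interneurons, of 18 and 20 measured, against 0.361% and 1.41% of all measured genes. With 1 library each there is no test. In granule nuclei 1 of 19 members was past it, against 0.742% of all measured genes. This was Cdh7, at 4.41 CPM (male) and 22.3 CPM (female), from 103 and 240 UMIs. In CA1 nuclei 1 of 18 was past it, against 0.449%, namely Pcdh15 at 54.9 and 17.7 CPM. The libraries held unlike shares of the finer CA1 clusters described above, and whether the Pcdh15 difference holds within each was not tested. Over all measured genes the median log2 ratio of male to female was between 0.06 and 0.13 in these classes.

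The subiculum held 4 of 22 members past 2-fold, against 2.07% of all measured genes. Cdh4 was at 101 CPM (male) and 36.9 CPM (female), and Cdh13 and Pcdh15 were also higher in the male library at the levels given above. Cdh9 was lower in the male library, at 41.6 against 97.8 CPM, a log2 ratio of -1.14 that became -0.67 with doublets kept. The retrohippocampal class held 4 of 22 as well, against 2.33%. Cdh20 was at 247 and 52.8 CPM, Pcdh11x at 129 and 54.0, Pcdh19 at 54.3 and 22.8, and Cdh4 at 11.7 and 35.6. The Cdh20 difference was not seen in the Vwc2l-led cluster, at 30.9 and 33.3 CPM, but stayed past 2-fold in the Gm49906-led cluster, at 420 and 127 CPM. The log2 ratios of Pcdh11x and Pcdh19 were both 0.52 in the Vwc2l-led cluster, and 0.37 and 0.99 in the Gm49906-led one. The Cdh4 ratio kept its direction in both clusters, at -1.04 and -2.23.

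In glia, the members past 2-fold toward the male library were Pcdh1, Pcdh8, Pcdh19 and Cdh9. Of 22 astrocyte members 2 were past 2-fold, against 1.66% of all measured genes: Pcdh8 at 51.9 and 19.8 CPM and Pcdh1 at 120 and 55.3. In precursors it was 1 of 22, against 1.35%, namely Pcdh19 at 88.5 and 33.9. In microglia it was 3 of 17, against 3.13%: Cdh9 at 68.7 and 29.1 CPM, Pcdh1 at 112 and 51.0, and Pcdh19 at 77.4 and 30. The male value was the higher one for 14 of the 17 microglial members, with a median log2 ratio of 0.68 against 0.06 for all measured genes. Other members were higher in male glia but inside 2-fold, such as Pcdh20 (log2 ratio 0.92 in astrocytes and 0.79 in oligodendrocytes) and Cdh11 (0.79 in microglia and 0.66 in oligodendrocytes). Pcdh1 was also higher in male neurons, at 0.87 in granule, 0.84 in CA3 and 0.77 in CA1 nuclei, and Pcdh19 at 0.87 in granule nuclei. With doublets kept, the microglial ratios of Cdh9, Pcdh1 and Pcdh19 were 0.40, 0.73 and 0.85 and the astrocyte ratios of Pcdh8 and Pcdh1 were 0.88 and 0.81, all inside 2-fold.

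In oligodendrocytes 4 of 20 members were past 2-fold, against 1.49% of all measured genes. Cdh9 was at 68.7 and 30.4 CPM, Pcdh1 at 119 and 52.9, and Pcdh8 at 53.7 and 23.9, whereas Cdh19 was higher in the female library at 250 and 533. This class too was made of different clusters, 2248 male and 220 female nuclei in one led by Aspa and 97 and 3357 in one led by A230001M10Rik. Between these clusters 0 of 20 measured members were past the fold in both libraries, against 0.697% of all measured genes. Within the Aspa-led cluster the log2 ratios of Cdh9 and Pcdh1 were 0.32 and 0.18 and that of Cdh19 was -0.42, while Pcdh8 stayed past 2-fold at 1.27, from 226 and 8 UMIs. Within the A230001M10Rik-led cluster they were 0.32, 0.72 and -0.84, and that of Pcdh8 was -0.47, from 3 and 154 UMIs.

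Markers of choroid plexus epithelium had a higher sum in the male library in every class found in both libraries. Their summed level over 8 markers was 2582 CPM in male and 239 in female microglia, 2406 and 198 in oligodendrocytes, 1501 and 163 in astrocytes and 1307 and 220 in precursors. In granule nuclei it was 804 and 90.1 CPM. It was 491 and 115 CPM in CA3 and 504 and 104 in Lhx6 nuclei, where no member was past 2-fold. The sum of 8 granule markers differed less between the libraries. It was 1871 and 1753 CPM in microglia, 2685 and 2680 in oligodendrocytes, 2176 and 2305 in astrocytes and 2348 and 1953 in precursors. Of the 8 choroid plexus markers 7 were higher in male microglia and all 8 in male oligodendrocytes. It was only 4 in Lhx6, Cajal-Retzius and retrohippocampal nuclei, 3 in pericyte and fibroblast nuclei and 1 in endothelial nuclei. The higher male sum there did not rest on most of the markers. Htr2c and Sulf1 among the 8 were also listed as markers of neuron classes. Folr1, Otx2 and Aqp1 were at 0 in female microglia, and a choroid plexus class was found in the male library only (25 nuclei). In those 25 nuclei Pcdh1 was at 84.3 CPM and Pcdh19 at 84.3, and Cdh9 at 199. The part of such RNA in the male excess was not tested.

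**Figure D5:**
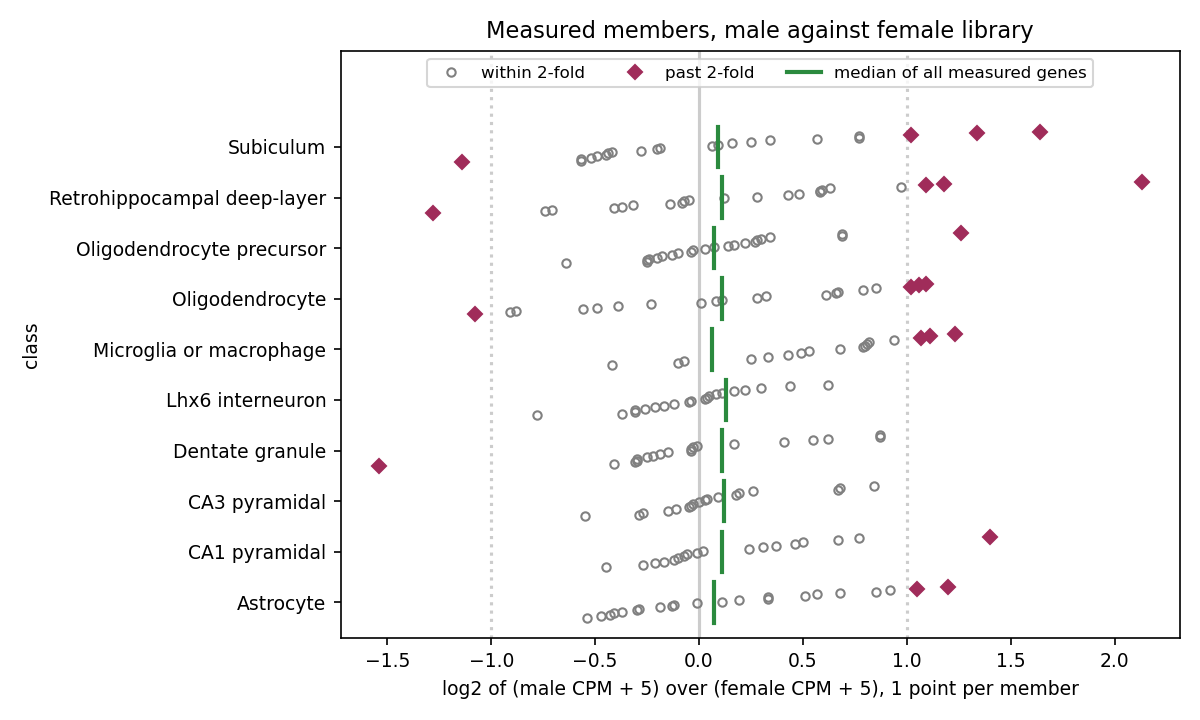
Log2 ratio of the male to the female level, each CPM plus 5, for each measured member (1 point each) in 10 classes, with members past 2-fold as filled diamonds and the median of all measured genes as a vertical bar. Most members lie within 2-fold, CA3 and Lhx6 nuclei have no filled point, and the microglial points are shifted to the male side with a median of 0.68.

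The genes that act with cadherins were past the fold between neighbouring fields about as often as all measured genes. Of 69 listed partner genes (catenins, other cadherin relatives, nectins and scaffolds, cadherin-cutting proteases, protocadherin kinases with the WAVE complex, and regulators of clustered promoters), 55 were measured between granule and CA3 nuclei and 7 were past the fold, against the 12.1% given above. Between CA3 and CA1 it was 4 of 53, against 7.48%, and between CA1 and the subiculum 3 of 52, against 4.98%. The 7 include Dsp and Nectin3 and the 4 include Nectin3, both of them markers used to name the granule or CA3 class. Proteases, kinases with the WAVE complex, and promoter regulators had none past it in these 3 pairs.

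Among catenins, the link from cadherins to actin, only Ctnna3 was past the fold. It was at 421 and 400 CPM in granule nuclei, 17.2 and 22.8 in CA3, 21.0 and 16.6 in CA1, and 860 and 1027 in the subiculum. Granule cells and the subiculum were the high fields in both libraries. Of the scaffolds, Magi1 was higher in granule nuclei and the subiculum than in the field beside each, and Magi3 was higher in CA3 than in granule nuclei. Fat4, a giant cadherin relative of the planar polarity pathway, was at 109 and 96.6 CPM in granule nuclei, 11.2 and 9 in CA3, and 44.6 and 36.7 in CA1. Dchs2, of the family of its binding partner, was at 46.3 and 35.3 CPM in CA3 and 15.4 and 11.7 in granule nuclei. Clstn2, a calsyntenin of the postsynaptic membrane, was at 1615 and 1756 CPM in CA3 and 651 and 576 in CA1. Nectin3 and Dsp were past the fold as well, but both served as markers when the classes were named.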

How the data were processed

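Nuclear RNA was sequenced from 1 male and 1 female library by droplet capture with 3' v3.1 chemistry, per the labels' protocols. The files hold deposited counts of UMIs for each barcode and gene, not normalized and made by the authors with Cell Ranger, version 7.0.1 by the file headers, and aligned to mm10 after bcl2fastq 2.20.0.422, per the submitters' processing notes. Whether intronic reads were counted, and with which annotation, is not given in the sources used here. Kept barcodes had 500 or more genes and a mitochondrial share of at most 5%. Scrublet at an expected rate of 8% called 9.57% of male nuclei as doublets; its threshold called 0% of female nuclei, so the top scores were used there (7.51%), and the libraries were thus treated differently. Called nuclei and clusters with over 40% of them were removed. Scanpy 1.11.5 scaled 3000 variable genes without the 92 members, reduced them to 40 components and clustered a graph of 15 neighbours (Leiden, resolution 1, and 2 for finer clusters). A cluster was named where at least 3 of 8 markers lay over 2-fold and no rival class had as many markers among the leading genes.

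UMIs were summed per class and library and given as CPM. Ratios are log2 of CPM plus 5, which understates those of low genes. Measured means at least 50 UMIs and 20 CPM. Intervals are exact 95% ones (Poisson, conditional binomial or Clopper-Pearson) and reflect counting error alone. No test was run, since each group has 1 library. The ratio step was tested on simulated counts. Members were named where over 2-fold above the next field or class, past 2-fold between libraries, or in a smallest combination, and partner genes up to 4 a list. The members and lists were chosen with earlier results of these data known. Positions and exons come from GENCODE vM21.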

Additional observations from a re-analysis of the deposited data

Results flagged for a closer look

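An unnamed cluster outside the compared classes, led by 6330411D24Rik with 38 male and 812 female nuclei, held more Cdh18 than any named class. Cdh18 was at 1047 CPM (male) and 1270 CPM (female) there, where the highest named class was at 422 and 527. Pcdh15 was also high in it, at 884 and 807 CPM, while Cdh24 was at 0 and 9.57. Of its markers, 2 of a retrohippocampal type lay over 2-fold, too few for a name.

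For 2 members the libraries gave opposite directions between the same classes, and this difference was not tested. Cdh7 in granule against CA3 nuclei had a log2 ratio of -0.59 (male) and 1.14 (female), from granule levels of 4.41 and 22.3 CPM. Cdh20 in the subiculum against the retrohippocampal class had -0.69 and 1.62. The retrohippocampal level of Cdh20 was 247 CPM (male) and 52.8 CPM (female), with 30.9 and 33.3 CPM within the cluster led by Vwc2l and 420 and 127 CPM within the one led by Gm49906.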

How the results depend on the processing

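Of 334 values taken under another setting, 263 kept their direction and stayed close, 69 moved and 2 reversed. The 263 include every ratio under the setting without the limits for measured genes. That setting leaves each ratio as it was, so those values could not move. The number of members past the fold between CA1 and the subiculum, 5, became 8 with nuclei thinned to 1000 UMIs, the same 5 among them. It was 8 with the male library alone and 8 with the female library alone. A single library keeps the 5 by rule, because the call needs both libraries. The 20 combinations past 2-fold between the libraries became 13 with doublets kept, 11 of them the same. The share of nuclei placed by members, 64.2%, became 53.9% at 1000 UMIs, 70.0% over 4 fields and 50.8% with 5 members alone. Reversed were Pcdh8 in oligodendrocytes within the cluster led by A230001M10Rik, at -0.47 from 3 male UMIs, and Cdh20 in retrohippocampal nuclei within the cluster led by Vwc2l, at -0.10. The single-library, within-cluster, 4-field and reduced-member settings were chosen after seeing the data, and the cause of each move was not tested. Leaving out a replicate was not possible with 1 library per group. No paired analysis was possible because the libraries carry no shared sample and each group has 1. Counting error limits the small classes, such as Cdh5 in male endothelial nuclei at 9 UMIs.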
